A study of Mus musculus with 55 samples.

Results

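Rrm1, Rrm2, Tyms and Tk1 encode enzymes that make deoxynucleotides, and their transcripts were followed through 5 stages of B cell development in mouse bone marrow. They were taken by gene symbol from the array annotation, which gave 8 probe sets for the 4 genes, among 6137 genes that the arrays name by 1 symbol. RNA had been measured on 2 oligonucleotide array sets with different probe sets, a first set and a b set. The filter on low values was passed by 7 of the 8 probe sets, which cover the 4 genes, and these were tested. Here "7 of 7" refers to those 7, not to all 8.

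The groups are populations sorted from marrow, with no genotype, strain, age or treatment in the labels used here. Pre-BI cells were taken as B220+ and c-kit+ (6 preparations). Large and small pre-BII cells shared one gate, B220+ and CD25+ without surface immunoglobulin, and differ in size (5 preparations each). Immature B cells had low B220 and surface IgM, and mature B cells high B220 and surface IgM (5 preparations each). A preparation is named by the sort number in its label. The labels do not say that preparations came from separate animals, so adjusted p-values measure the spread between preparations, which may be technical.

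A cell that copies its genome needs the 4 deoxynucleotides, and it holds only a small stock of them. Ribonucleotide reductase removes an oxygen from ribonucleotides: Rrm1 encodes its large, catalytic subunit, and Rrm2 its small subunit, which carries the radical that the reaction needs and is degraded late in the cell cycle. Tyms encodes thymidylate synthase, which methylates dUMP to dTMP with a folate. Tk1 encodes the cytosolic thymidine kinase, which makes dTMP from salvaged thymidine and is known as a marker of cells in S phase. In the marrow, large pre-BII cells are known as cycling cells and small pre-BII cells as their resting descendants.

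The promoters of the 4 genes are shown because the genes were high and low in the same populations. Each window holds 300 bases on the gene's own strand, on GRCm38.p6. Those of Rrm1 and Rrm2 run from 250 bases before to 50 bases after the gene's start as RefSeq places it. On the minus strand, the windows of Tyms and Tk1 reach less than 250 bases beyond the gene ranges given next. The start they were placed by is thus not the end of those ranges. The genes lie at chr7:102441695-102469771 (Rrm1), chr12:24708254-24714146 (Rrm2), chr5:30038546-30073645 (Tyms) and chr11:117815519-117826087 (Tk1). Capitals mark matches, on either strand, to the 4 forms of the E2F motif, to CCAAT and to GGGCGG, a GC box. The first E2F form searched was TTCCCGC, the second form searched was TTGGCGC, the third form searched was TTGCCGC, and the last form searched was TTCGCGC. The word TTTGAA, searched for as well, had no match in the 4 windows.
Rrm1, chr7:102441445-102441744, plus strand: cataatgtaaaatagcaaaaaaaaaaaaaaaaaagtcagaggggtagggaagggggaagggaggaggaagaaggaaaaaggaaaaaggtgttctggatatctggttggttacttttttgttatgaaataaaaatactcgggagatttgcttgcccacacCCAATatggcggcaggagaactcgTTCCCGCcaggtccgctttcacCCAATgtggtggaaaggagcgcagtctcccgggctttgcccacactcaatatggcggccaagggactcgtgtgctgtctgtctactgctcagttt
Rrm2, chr12:24708004-24708303, plus strand: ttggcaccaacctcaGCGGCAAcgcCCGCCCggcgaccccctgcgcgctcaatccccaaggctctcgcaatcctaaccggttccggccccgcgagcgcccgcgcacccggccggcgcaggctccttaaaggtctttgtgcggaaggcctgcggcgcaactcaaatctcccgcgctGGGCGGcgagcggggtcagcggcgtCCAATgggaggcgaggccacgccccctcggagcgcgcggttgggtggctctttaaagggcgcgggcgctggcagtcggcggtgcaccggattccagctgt
Tyms, chr5:30073576-30073875, minus strand: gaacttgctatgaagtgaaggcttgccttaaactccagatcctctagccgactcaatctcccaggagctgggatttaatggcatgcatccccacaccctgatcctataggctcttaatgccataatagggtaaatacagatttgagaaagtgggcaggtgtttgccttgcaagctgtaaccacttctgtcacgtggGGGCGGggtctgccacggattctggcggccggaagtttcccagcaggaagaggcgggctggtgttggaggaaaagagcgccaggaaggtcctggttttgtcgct
Tk1, chr11:117825965-117826264, minus strand: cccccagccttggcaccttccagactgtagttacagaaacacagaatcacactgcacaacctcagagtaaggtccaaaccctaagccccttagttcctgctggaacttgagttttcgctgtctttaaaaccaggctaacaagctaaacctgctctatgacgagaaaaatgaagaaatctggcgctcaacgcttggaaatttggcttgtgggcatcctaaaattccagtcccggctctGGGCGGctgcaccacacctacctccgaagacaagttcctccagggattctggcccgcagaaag
An E2F form stood in the Rrm1 window (TTCCCGC at bases 184 to 190) and, on the other strand, in the Rrm2 window (TTGCCGC at bases 16 to 22), against 9.69% of 27025 RefSeq promoters of that length, 1 for each gene. CCAAT stood in the Rrm1 and Rrm2 windows, against 37.9% of promoters, and GGGCGG in the Rrm2, Tyms and Tk1 windows, against 35.9%. TTTGAA occurred in 18.1%. No match overlapped another. The 300 bases of Rrm2 held 71.3% G and C, those of Tyms 53.0%, of Tk1 50.7% and of Rrm1 47.0%, beside a median of 52.7% over all 27025. A match is a run of letters and no measured binding.

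Levels are the deposited linear intensities after quantile normalisation within each array set, in arbitrary units, and levels of different probe sets are not set against each other. The spread of the negative values gave each set a noise limit, 251 for the first and 319 for the b set, which 40% and 20.1% of their values exceeded. Folds are between means of log2 values raised to that limit. A fold is written "at least" if the dimmer population had no preparation over the limit, and where only some of its preparations exceeded it, the limit sets part of the fold and their number is given. Probe sets ending in _s_at or _f_at can share probes with related sequences, and 7 of the 8 are of those kinds.

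The stage labels were set against marker genes. Cd79a, Cd79b and Ptprc exceeded the noise limit in all 26 preparations, while Pax5 did so in 1. The summed level of 4 pre-BI markers (Dntt, Igll1, Kit and Vpreb1) was 12947 to 20297 in pre-BI cells and at most 2390 in any other population. Kit, which encodes the c-kit of the pre-BI gate, added little to it: its pre-BI mean was 285, with 2 of 6 preparations over the limit. The 5 immature and mature B markers summed to 25439 to 28870 in immature and 33539 to 42526 in mature B cells, and to at most 5643 in the earlier populations. Il2ra, which encodes the CD25 of the pre-BII gate, exceeded the limit in 0 of 5 large and 1 of 5 small pre-BII preparations, so the arrays did not show that gate. The 9 granulocyte and myeloid markers summed to 6043 to 19653 in pre-BI cells, to 4172 to 10555 in large and 3887 to 5587 in small pre-BII cells, to 5235 to 7616 in immature B cells and to 7387 to 11425 in mature B cells. In all 5 populations Lyz2 and Ngp exceeded the limit in every preparation, and Mpo in none. Erythroid markers, 4 of 8 on the arrays, overlapped between all populations and summed to 4728 to 14958, most of it Hba-a1. T and NK markers, 5 of 8 on the arrays, summed to 1020 to 3070 in pre-BI cells, with Gzma in front, and to at most 902 elsewhere, with Cd3d and Cd3g never above the limit. In bulk RNA, fewer cells of a type and less RNA per cell cannot be told apart.

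Rrm1, read by 1 probe set (K02927_s_at), averaged 2310 ± 424 in pre-BI cells (SD, n = 6). Its later means were 2740 ± 650 in large and 388 ± 158 in small pre-BII cells, 283 ± 120 in immature B cells and 206 ± 144 in mature B cells (SD, n = 5 each). Small pre-BII cells held 302, 288, 485, 618 and 246 in sorts 1, 3, 8, 9 and 10, against 2456, 3188, 3602, 1954 and 2522 in large pre-BII cells of sorts 1, 2, 8, 9 and 10. The lowest large pre-BII preparation stood above the highest small one, so the groups did not overlap. The share of all probe sets without such overlap was not counted, here or in any later comparison. The 6 pre-BI values ran from 1850 to 2983 with a median of 2301 and overlapped those of large pre-BII cells. Immature B cells had 393, 265, 373, 290 and 91 in sorts 1, 2, 8, 9 and 11. Mature B cells had 57, 162, 421, 276 and 117 in sorts 1, 3, 8, 9 and 11. The transcript of the catalytic subunit thus stayed above the noise limit in 4 of 5 small pre-BII, 4 of 5 immature and 2 of 5 mature preparations.

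Rrm2 had 4 probe sets. The first (C81593_rc_f_at) averaged 7920 ± 1720 in pre-BI cells (SD, n = 6). Its later means were 8910 ± 2210 in large and 2120 ± 1600 in small pre-BII cells, 429 ± 263 in immature B cells and 443 ± 163 in mature B cells (SD, n = 5 each). Small pre-BII cells held 1775, 720, 3405, 4140 and 581 in sorts 1, 3, 8, 9 and 10, against 7185, 9873, 12317, 8109 and 7090 in large pre-BII cells. Every small pre-BII value lay under every large one and the 5 small values ran from 581 to 4140. Immature B cells had 106, 611, 624, 625 and 177 in sorts 1, 2, 8, 9 and 11, and the highest of them lay above the lowest small pre-BII value, so those 2 populations overlapped. Mature B cells had 257, 374, 502, 689 and 391, all above the noise limit.

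The second Rrm2 probe set (m14223_s_at) averaged 3340 ± 2200 in pre-BI cells (SD, n = 6). Its later means were 5390 ± 3030 in large and 560 ± 491 in small pre-BII cells, 180 ± 90.7 in immature B cells and 157 ± 125 in mature B cells (SD, n = 5 each). Small pre-BII cells held 405, 192, 746, 1326 and 131, against 2383, 7043, 9809, 4409 and 3297 in large pre-BII cells, with no overlap. The third (C81007_rc_f_at) had 281, 197, 446, 530 and 42 in small pre-BII cells, against 876, 1210, 1067, 982 and 618 in large pre-BII cells, again with no overlap. Its pre-BI values spread from 300 to 1648 and overlapped those of small pre-BII cells. The b set probe set (Msa.1141.0_s_at) exceeded the noise limit of its set in 3 of 26 preparations, 2 of pre-BI and 1 of large pre-BII cells, and its population means lay between -679 and 102. Its passed tests rest mostly on values under that limit, and in small against large pre-BII cells it did not pass without large pre-BII sort 1 (adjusted p = 0.0531), 8 (0.0851) or 9 (0.0655), or with the floor at the 60th percentile (adjusted p = 0.154). It is counted among the 7, no level or fold of it is read, and counts and medians of the 6 first-set probe sets are given beside those of the 7.

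Tyms (m13352_s_at) was the one member with a lower mean in large pre-BII than in pre-BI cells and no overlap between them. It averaged 1290 ± 315 in pre-BI cells (SD, n = 6). Its later means were 602 ± 178 in large and 145 ± 50.6 in small pre-BII cells, 113 ± 93.3 in immature B cells and 132 ± 84.4 in mature B cells (SD, n = 5 each). Large pre-BII cells held 560, 832, 738, 412 and 469 in sorts 1, 2, 8, 9 and 10, against 958 to 1762 (median 1287) in pre-BI cells. None of the 15 small pre-BII, immature and mature preparations exceeded the noise limit. The highest of them was a mature one with 242. The other Tyms probe set, on the b set, was above neither its floor nor its noise limit in any of the 26 preparations and was not tested.

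Tk1 (m19438_s_at) averaged 1340 ± 355 in pre-BI cells (SD, n = 6). Its later means were 1160 ± 330 in large and 37 ± 161 in small pre-BII cells, 74.1 ± 184 in immature B cells and 58 ± 62.8 in mature B cells (SD, n = 5 each). Large pre-BII cells held 965, 1051, 1269, 1684 and 843, inside the 923 to 1930 (median 1247) of pre-BI cells except for the last. Small pre-BII cells held 159, 6, -39, 232 and -173, all under the noise limit. One immature preparation, sort 1, stood above it with 368, and no mature one did.

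**Figure D1:**
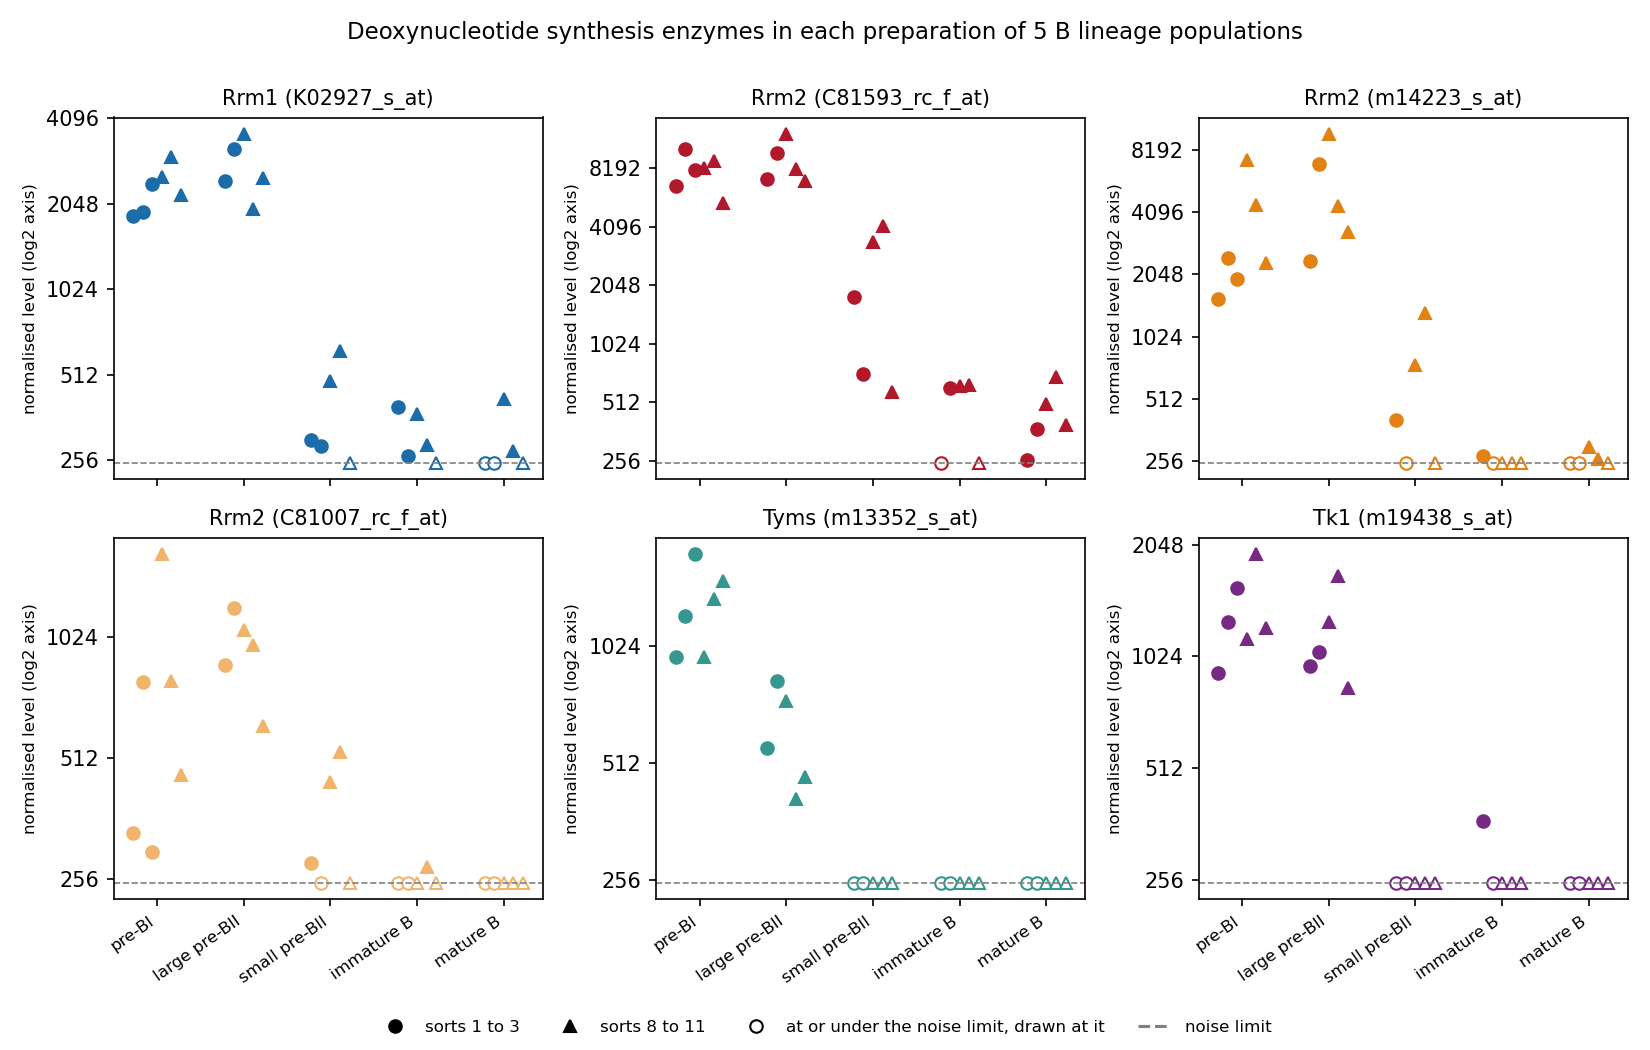
Normalised level (log2 axis, arbitrary units) of the 6 first-set probe sets in each of 26 preparations of pre-BI, large pre-BII, small pre-BII, immature and mature B cells. Each symbol is 1 preparation, circles for sorts 1 to 3 and triangles for sorts 8 to 11, open and drawn at the noise limit of 251 where the value was at or under it. In each panel every large pre-BII value lies above every small pre-BII value, and in the Tyms panel every large pre-BII value also lies under every pre-BI value. The share of all probe sets that lack such overlap was not counted.

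Ordered by mean, Rrm1 and the first-set Rrm2 probe sets ran large pre-BII, pre-BI, small pre-BII, then the surface IgM+ cells. Tyms and Tk1 ran pre-BI, large pre-BII, then the other 3. A moderated F test over the 5 populations passed for 7 of 7 probe sets, where 14.8% of all 10229 tested probe sets passed it, with adjusted p between 3.84e-11 and 2.27e-05 for the 6 of the first set (limma, Benjamini-Hochberg). Between neighbours in that order the 1 step that passed for Rrm1 and Rrm2 m14223_s_at was the one from pre-BI to small pre-BII cells. For Tk1 it was the one from large pre-BII to immature B cells, and for Tyms the one from large to small pre-BII cells. For Rrm2 C81593_rc_f_at the step from pre-BI to small pre-BII cells passed, and so did the one after small pre-BII cells. For Rrm2 C81007_rc_f_at no single neighbour step passed. Its small pre-BII and pre-BI cells, which overlapped, had an adjusted p of 0.107.

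Small pre-BII cells set against large pre-BII cells showed the drop of all 4 genes. All 7 tested probe sets fell (6 of 6 of the first set), beside 3.27% of all 10229 probe sets that fell and 2.03% that rose. Rrm1 was 7.33-fold lower (adjusted p = 2.44e-06), with 4 of 5 small pre-BII preparations over the noise limit. Rrm2 was 9.89-fold (m14223_s_at, adjusted p = 1.12e-05), 5.45-fold (C81593_rc_f_at, adjusted p = 0.00044) and 2.77-fold lower (C81007_rc_f_at, adjusted p = 0.013), with 3, 5 and 3 of 5 small pre-BII preparations over the limit on these 3 probe sets. Tk1 was at least 4.49-fold (adjusted p = 4.47e-07) and Tyms at least 2.31-fold lower (adjusted p = 0.000514). The bounds of Tyms and Tk1 are set by how far large pre-BII cells stand over the noise limit and do not rank these genes against Rrm1. The median log2 difference of the 7 was -2.88 and that of the 6 of the first set -2.66, beside 0.06 over all probe sets. Granulocyte marker sums were 3887 to 5587 in small and 4172 to 10555 in large pre-BII cells, and erythroid sums 4728 to 12731 and 8633 to 13361. Their part in the result was not tested.

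The differences were also computed within the preparations numbered 1 to 3 and within those numbered 8 to 11. On the log2 scale of the fit, Rrm1 differed by -3.24 and -2.64, Rrm2 m14223_s_at by -3.88 and -3.37, Rrm2 C81593_rc_f_at by -2.90 and -2.14, and Tk1 by -3.09 and -3.33, and each passed within both. Tyms differed by -2.48 (adjusted p = 0.113) and -1.72 (adjusted p = 0.0762), and Rrm2 C81007_rc_f_at by -2.13 (adjusted p = 0.243) and -1.66 (adjusted p = 0.201), without passing in either. Rrm2 C81007_rc_f_at also did not pass without small pre-BII sort 10 (adjusted p = 0.0689). On the values as deposited, without normalisation between arrays, Rrm2 C81593_rc_f_at, Rrm2 C81007_rc_f_at and Tyms did not pass (adjusted p = 0.0739, 0.259 and 0.0936). Over 15 alternatives the adjusted p of Rrm2 C81593_rc_f_at ran between 3.56e-05 and 0.0739, that of Rrm2 C81007_rc_f_at between 0.00197 and 0.259, and that of Tyms between 0.00011 and 0.113. As deposited, 46 of all probe sets rose and 181 fell, against 208 and 334 after quantile normalisation.

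**Figure D2:**
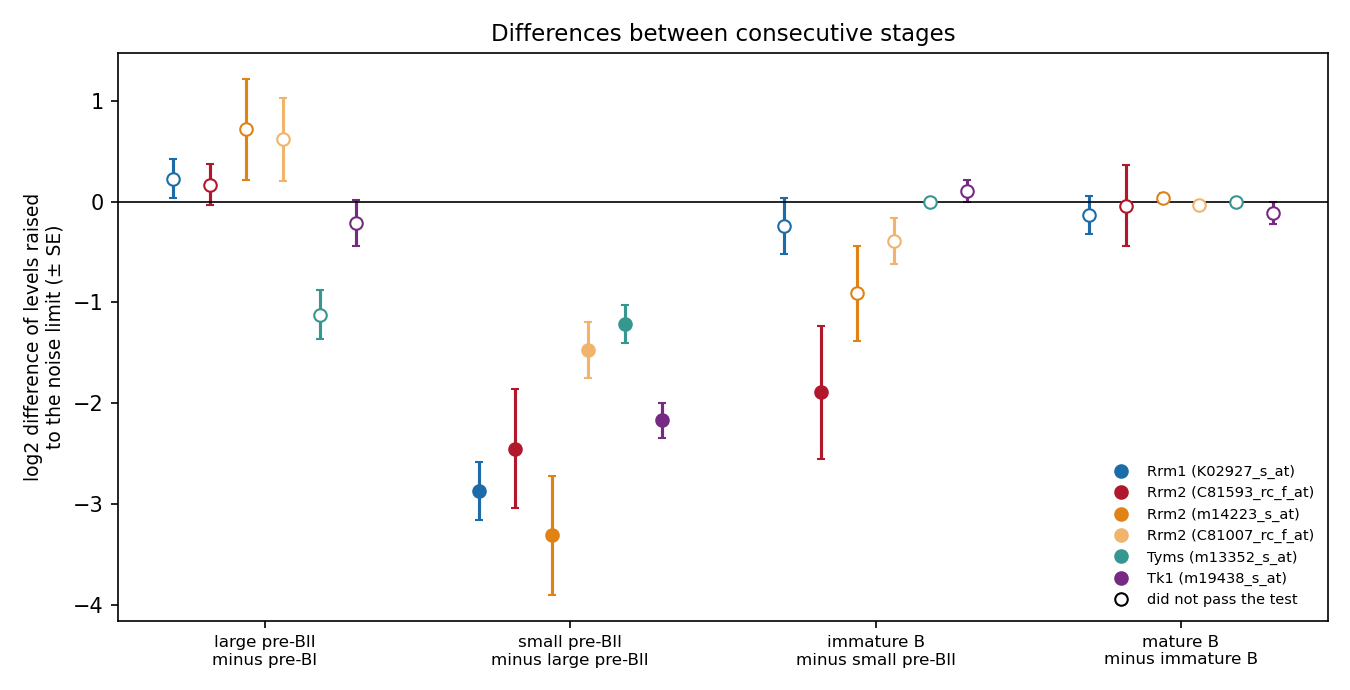
Log2 difference between consecutive stages (later minus earlier, vertical axis) for the 6 first-set probe sets, from levels raised to the noise limit. Bars are the SE of that difference over preparations, not the SE of the fit. Filled points passed the limma test and open points did not. All 6 points lie under 0 and are filled in small minus large pre-BII, 1 is filled in immature B minus small pre-BII, and none is filled in the other 2 comparisons.

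Small pre-BII preparations were not alike. Sorts 8 and 9 had the highest levels of Rrm1 and of the 3 first-set Rrm2 probe sets, and sorts 3 and 10 the lowest 2 on each. Relative to the mean of large pre-BII cells, Rrm2 C81593_rc_f_at stood at -1.36 and -1.07 in sorts 8 and 9 and at -3.60 and -3.91 in sorts 3 and 10, on the log2 scale raised to the noise limit. Rrm2 m14223_s_at stood at -2.67 and -1.84 in sorts 8 and 9 and at the noise limit, -4.24, in both others. The median of 17 Mcm and fork genes stood at -1.02 and -1.17 in sorts 8 and 9, and at -1.73 and -1.63 in sorts 3 and 10. The median of 13 G2 and mitosis genes stood at -2.52 and -2.63 in sorts 8 and 9, and at -3.39 and -3.38 in sorts 3 and 10. Top2a, Bub1, Prc1 and Ube2c of that list exceeded the noise limit in 0 of 5 small pre-BII preparations. So did Prim2, Pola1, Fen1 and Rpa1 of the Mcm and fork list. The medians of both lists are thus set in part by the limit and are not ranked against the members. Sort 1 lay between the others on Rrm2 C81593_rc_f_at, at -2.30. No test was made of these differences between single preparations.

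**Figure D3:**
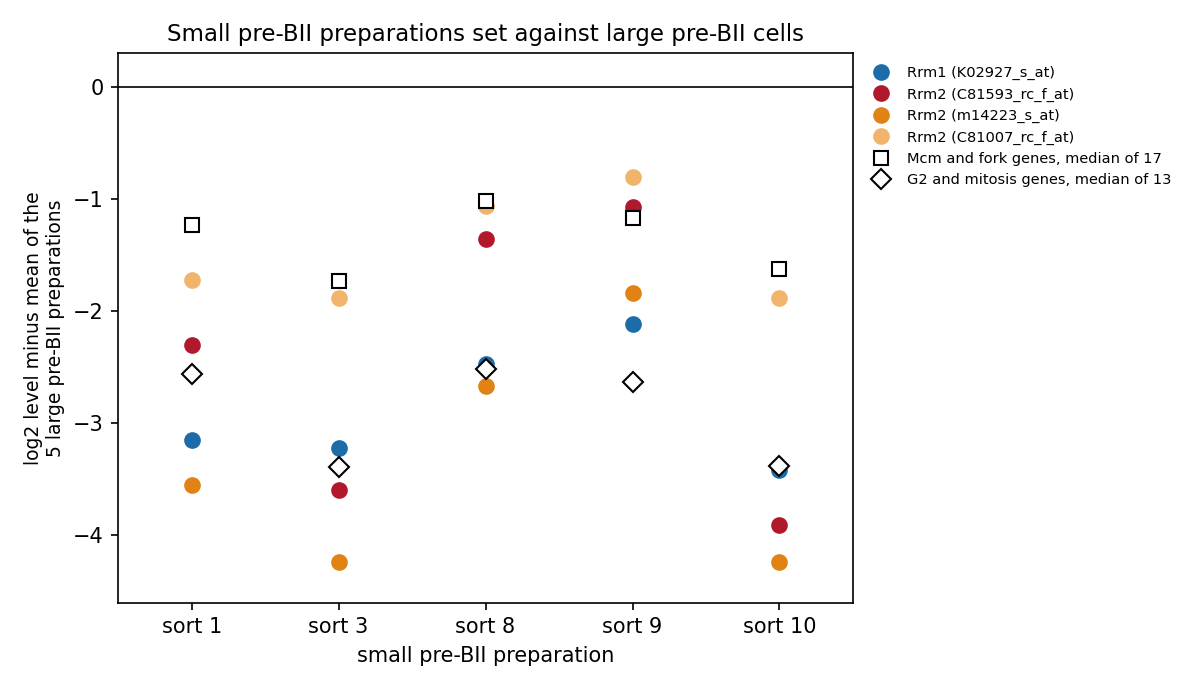
Log2 level in each of the 5 small pre-BII preparations minus the mean of the 5 large pre-BII preparations (vertical axis), raised to the noise limit. Coloured circles are Rrm1 and the 3 first-set Rrm2 probe sets, open squares the median of 17 Mcm and fork genes and open diamonds the median of 13 G2 and mitosis genes. Rrm2 C81593_rc_f_at stands highest in sort 9, at -1.07, and lowest in sort 10, at -3.91.

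Large pre-BII cells set against pre-BI cells compare 2 populations in which the members were high. By limma 0 of the 7 probe sets passed, beside 0.87% of all probe sets that rose and 0.997% that fell. Tyms alone had an unadjusted limma p under 0.05, a count that was not made over all probe sets. The 3 first-set Rrm2 probe sets had folds of 1.12, 1.65 and 1.54, with adjusted p from 0.787 to 0.987. Rrm1 differed by 0.23 ± 0.37 (log2, SE of the fit, adjusted p = 0.968) and Tk1 by -0.21 ± 0.38 (adjusted p = 0.975). Tyms was 2.17-fold lower in large pre-BII cells, by -1.12 ± 0.37 (log2, SE of the fit), with an adjusted p of 0.146. It was lower in 5 of 5 sort numbers that both populations share, by -0.78, -0.56, -0.38, -1.71 and -1.68 in sorts 1, 2, 8, 9 and 10. The sign of Rrm1 and of each Rrm2 probe set was not the same in all 5. Tyms passed where the floor was set at the 60th percentile (adjusted p = 0.0011) or at the noise limit (adjusted p = 0.000822), and its adjusted p reached 1 within sorts 1 to 3. Its difference was -0.83 on the values as deposited, -0.90 within sorts 1 to 3 and -1.26 within sorts 8 to 11, without passing in any of them. Whether Tyms differs from Rrm1 or Rrm2 in this step was not tested. Granulocyte and T and NK marker sums were also lower in large pre-BII than in pre-BI cells, at 4172 to 10555 against 6043 to 19653 and 458 to 902 against 1020 to 3070, and their part in the Tyms difference was not tested.

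Other cell cycle genes were counted in the same step. Of 17 Mcm and fork genes, which license and copy DNA, 0 passed by limma, 1 (Rpa3) had an unadjusted p under 0.05, 5 differences were below 0, and the median was 0.14. Of 13 G2 and mitosis genes 4 rose and none fell, 0 differences were below 0, and the median was 1.01. The difference between the 2 lists was not tested. The 4 were Ube2c (3.52-fold, adjusted p = 0.00129, with 4 of 6 pre-BI preparations over the noise limit), Prc1 (2.44-fold), Ccnb2 (2.18-fold) and Cenpa (2.00-fold), which act in the destruction of mitotic proteins, the spindle midzone, entry into mitosis and the centromere.

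Immature B cells set against small pre-BII cells showed 1 further drop. Of 7 probe sets 1 fell, Rrm2 C81593_rc_f_at, by 3.70-fold (adjusted p = 0.00277, 3 of 5 immature preparations over the noise limit), beside 0.88% of all probe sets that fell and 1.31% that rose. This call did not pass within sorts 1 to 3 (-2.15, adjusted p = 0.259) and passed within sorts 8 to 11 (-2.30, adjusted p = 0.0373). It did not pass on the values as deposited (-2.02, adjusted p = 0.339), where 53 of all probe sets rose and 22 fell, against 134 and 90 after quantile normalisation. Its adjusted p over the 15 alternatives ran between 3.65e-05 and 0.339. With the sort number as a replicate block, Rrm2 m14223_s_at passed as well (-1.48, adjusted p = 0.0395), against -1.23 with an adjusted p of 0.376 without the block and between 0.0395 and 0.922 over the 15 alternatives. Rrm1 differed by -0.53 ± 0.39 (log2, fit and its SE, adjusted p = 0.78). Tyms lay under the noise limit in both populations, and Tk1 in 9 of 10 preparations, so no change of these 2 could be measured there.

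Mature B cells set against immature B cells had 0 of 7 calls by limma, where 0.616% of all probe sets rose and 0.733% fell. An unadjusted limma p under 0.05 was seen for 0 of the 7, a count that was not made over all probe sets. The lowest adjusted p among the 7 was 0.889, for Rrm1. Mature B cells set against small pre-BII cells again had Rrm2 C81593_rc_f_at as the 1 call, 3.81-fold lower (adjusted p = 0.00703), beside 2.3% of all that fell. This call did not pass on the values as deposited (adjusted p = 0.256), within sorts 1 to 3 (adjusted p = 0.271) or within sorts 8 to 11 (adjusted p = 0.055), and its adjusted p over the 15 alternatives ran between 0.000268 and 0.271. With the sort number as a replicate block Rrm2 m14223_s_at passed as well (adjusted p = 0.0172), against an adjusted p of 0.179 without the block.

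The same genes were low in each later population when pre-BI or large pre-BII cells were the starting point. These comparisons share those cells with the ones above. Against pre-BI cells, 5 of 7 probe sets fell in small pre-BII (4.57% of all fell and 3.29% rose), 6 of 7 in immature (4.4% fell) and 6 of 7 in mature B cells (6.03% fell and 4.78% rose). Against large pre-BII cells, 7 of 7 fell in immature (4.1% of all fell) and 7 of 7 in mature B cells (5.66% fell). Of the 6 first-set probe sets, 5, 6 and 6 fell against pre-BI cells, and 6 and 6 against large pre-BII cells. Against pre-BI cells, Rrm2 C81593_rc_f_at did not pass in small pre-BII cells on the values as deposited (adjusted p = 0.143). Rrm2 C81007_rc_f_at did not pass as deposited or within sorts 1 to 3, in immature (adjusted p = 0.152 and 0.326) or in mature B cells (adjusted p = 0.0827 and 0.243). Against large pre-BII cells, Tyms did not pass in mature B cells as deposited (adjusted p = 0.0825) or within sorts 1 to 3 (adjusted p = 0.0545). In immature B cells Tyms (adjusted p = 0.0711) and Tk1 (adjusted p = 0.0897) did not pass within sorts 1 to 3. Over the 15 alternatives the lowest adjusted p of these 6 differences lay between 6.08e-08 and 0.000406. In mature against pre-BI cells Rrm2 C81593_rc_f_at was 18.5-fold lower (adjusted p = 7.81e-09) and Rrm1 8.03-fold lower on levels raised to the noise limit, which 2 of 5 mature preparations exceeded (adjusted p = 4.53e-09). Tyms was at least 5.01-fold lower (adjusted p = 5.44e-08) and Tk1 at least 5.19-fold lower (adjusted p = 3.94e-09).

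Other genes of nucleotide metabolism were counted in small against large pre-BII cells. Of 34 tested genes on 5 lists, 5 fell and 1 rose, with a median log2 difference of -0.31. Of all 10229 probe sets 3.27% fell and 2.03% rose in this step, which applies to the list counts below as well. Of 17 Mcm and fork genes 14 fell and none rose (median -1.99), and of 13 G2 and mitosis genes 13 fell (median -3.27). The members' first-set probe sets ran from -3.57 (Rrm2 m14223_s_at) to -1.84 (Rrm2 C81007_rc_f_at). The difference between them and the lists was not tested.

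Among the reductants that return electrons to the reductase, and related genes, 1 of 3 tested fell, Txn1 (thioredoxin), by 1.57-fold (adjusted p = 0.0365). Of 3 tested folate genes 1 fell, Mthfd2, a mitochondrial enzyme of the one-carbon cycle, by 4.96-fold (adjusted p = 0.000192, 4 of 5 small pre-BII preparations over the noise limit). It held 678, 469, 307, 344 and 230 in small pre-BII cells, against 1646, 2218, 1953, 1652 and 2145 in large pre-BII cells, without overlap. Shmt2, which feeds the same mitochondrial cycle from serine, averaged 243 and 267 in small and large pre-BII cells (adjusted p = 0.922).

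Of 13 tested kinases and salvage genes 2 fell. Dtymk, which phosphorylates the dTMP that Tyms and Tk1 make, was 2.66-fold lower (adjusted p = 0.00532, 4 of 5 small pre-BII preparations over the limit), and Hprt, which salvages purine bases, 3.24-fold lower (adjusted p = 0.000568). Dck, which phosphorylates salvaged deoxycytidine, averaged 999 in small pre-BII and 825 in large pre-BII cells and did not pass (adjusted p = 0.883). It fell by 2.52-fold in immature against small pre-BII cells (adjusted p = 0.0215, 4 of 5 immature preparations over the limit). Tk2, the mitochondrial thymidine kinase, averaged 499 in small and 223 in large pre-BII cells without passing (adjusted p = 0.0922), and rose 2.56-fold in mature against pre-BI cells (adjusted p = 6.07e-05, 2 of 6 pre-BI preparations over the limit).

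Of 4 genes that break deoxynucleotides or their nucleosides down, 1 rose in small against large pre-BII cells. Samhd1, which hydrolyses deoxynucleoside triphosphates, rose 5.42-fold (adjusted p = 9.98e-08), with 2076 to 4614 in small pre-BII against 381 to 988 in large pre-BII cells. Its mean was 312 in pre-BI cells, 586 in large and 3120 in small pre-BII cells, 4410 in immature B cells and 6730 in mature B cells. Pnp (purine nucleoside phosphorylase) and Ada (adenosine deaminase) had fallen a stage earlier. In large pre-BII against pre-BI cells Pnp was 3.00-fold lower (adjusted p = 8.87e-06) and Ada 3.32-fold lower on levels raised to the noise limit, which 1 of 5 large pre-BII preparations exceeded (adjusted p = 3.3e-05). They are the 2 of 4 genes of that list that fell in that step, where 0.997% of all probe sets fell. Of 11 genes of de novo synthesis 1 fell in small against large pre-BII cells, Ctps (CTP synthase), by 2.32-fold (adjusted p = 0.0261, 4 of 5 small pre-BII preparations over the limit). Prps1, which makes the ribose donor of both pathways, was 1.84-fold lower without passing (adjusted p = 0.0621).

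**Figure D4:**
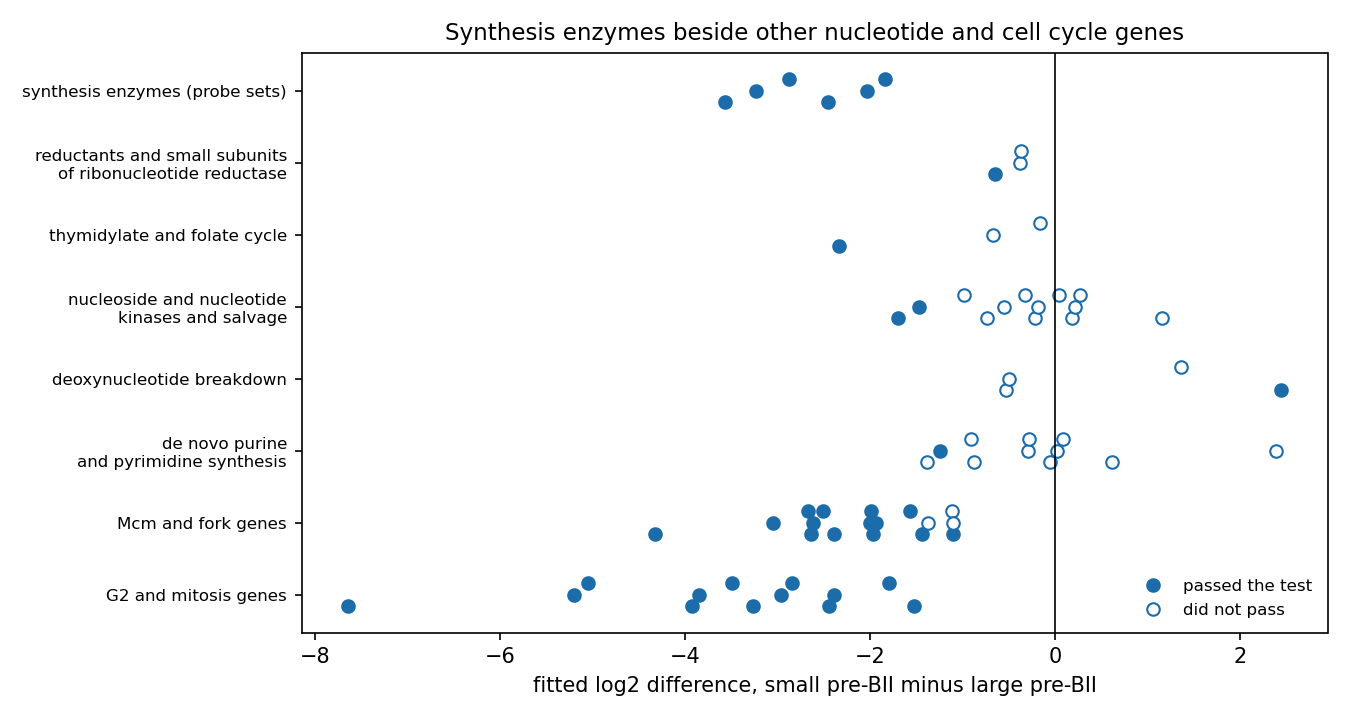
Fitted log2 difference, small minus large pre-BII cells (horizontal axis), for the 6 first-set probe sets of the synthesis enzymes and, 1 point a gene, for 7 lists. Filled points passed the limma test and open points did not, and height within a row has no meaning. The synthesis enzymes, the 17 Mcm and fork genes and the 13 mitosis genes lie left of 0. Most genes of the metabolic lists lie near 0, and Samhd1 at 2.44 is the filled point on the right.

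The genes with the most similar pattern were found over the 26 preparations, among probe sets with 1 symbol, by Pearson's r on log2 levels raised to the noise limit. The preparations fall into high and low levels and share arrays, so r is a description. Rrm1 lay nearest to Nusap1, Aurkb and Cdk1 (r = 0.97 each), then Rrm2 m14223_s_at and Ccna2 (0.96 each). Rrm2 C81593_rc_f_at lay nearest to Pcna and Hmgb1 (0.96 each), then Mcm5, Cdk1 and Aurkb (0.95 each). Tyms lay nearest to Mcm6 (0.95), Ramp1 and Acp6 (0.93 each), then Tk1 and Gar1 (0.91 each). Tk1 lay nearest to Mcm6 (0.96), then Prdx4, Rrm1 and Mcm3 (0.95 each) and Ccna2 (0.94). Mcm6, read here by D86726_s_at, averaged 1080 in large pre-BII and 1810 in pre-BI cells, while Nusap1 averaged 7340 in large pre-BII and 3740 in pre-BI cells. A brighter Mcm6 probe set, the one used in the Mcm and fork list, averaged 3240 in large pre-BII and 3900 in pre-BI cells.

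Among the 11 pre-BI and large pre-BII preparations, deviations from the population means were compared between probe sets. The first-set Rrm2 probe sets had r between 0.48 and 0.80 with each other, and the b set one was not compared. Between different genes r ran from -0.15 (Tyms and Rrm2 C81007_rc_f_at) to 0.69 (Rrm1 and Rrm2 m14223_s_at). Rrm1 and Tyms had r = 0.64, and Tyms and Tk1 had r = 0.23. These 11 preparations share arrays and normalisation, and no test was made.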

How the data were processed

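RNA of 26 preparations of 5 sorted populations was measured on 55 arrays of 2 sets. The deposited tables hold 1 linear intensity per probe set and array, computed by the authors, with negative values; their extraction and scaling were not given in the sources used here. Symbols came from the probe set annotation given with the arrays. One first-set mature B array repeated another in all 6584 values and was left out, so 54 arrays were kept, and second arrays of a preparation were averaged. Arrays were quantile-normalised within each set, because their trimmed means differed 5.6-fold and 4.23-fold. Values were raised to the 40th percentile (87.6 and 6.89), and log2 was taken. Probe sets above it in at least 5 of 26 preparations were tested (10229) with limma 3.58.1 in R 4.3.3 (lmFit, eBayes with trend, within each set), with Benjamini-Hochberg adjustment over both sets at 0.05 in each comparison. The noise limit is 2 robust SDs of the negative values. The number of arrays limits the precision. Members, lists and rules were chosen with earlier results of these data known. The text names every member probe set, up to 4 passing and 2 other genes of a list per comparison, and the 5 genes most like each member; lists give the brightest probe set of a gene. Sort numbers were checked as pairs: deviations of equal-numbered preparations correlated above 0.1 in every pair for large pre-BII with pre-BI, immature with small pre-BII and mature with immature B cells, and not for the other comparisons. Alternatives covered scaling, floor, filter, sort number as a block, the low and high sort numbers apart, second and identical arrays, the eBayes trend and leaving out each preparation.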

Additional observations from a re-analysis of the deposited data

Results flagged for a closer look

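Rrm2 on C81007_rc_f_at had 1 pre-BI preparation far from the others: sort 8 stood at 1648, and the next value was 799. It was the 1 flag among 40 groups of preparations examined by Dixon's criterion, which chance alone raises in about 1 of 20 groups. On Rrm2 m14223_s_at the same preparation was also the highest of its group, with 7347, and on Rrm2 C81593_rc_f_at, with 8190, it was not. All these are levels after quantile normalisation. On the values as deposited sort 8 was not the highest. On C81007_rc_f_at it had 557, against 975 in sort 9 and 882 in sort 2, and on m14223_s_at 2495, against 5468 in sort 9. Arrays differ in brightness as deposited: on C81593_rc_f_at sort 8 had 2801, against 10635 in sort 9 and 10712 in sort 2. The deposited values thus cannot show whether sort 8 stood apart.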

How the results depend on the processing

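Of 165 counts of called probe sets under 15 alternatives, 153 stayed within 1.5 times the main count, and of 780 single differences 749 kept their direction and their side of the threshold. These 780 are of 52 differences in which at least 1 population averaged above the noise limit, a rule chosen after the results had been seen. Of the other 18 differences 3 passed, all of the b set probe set of Rrm2, and of their 708 values under the alternatives and with a preparation left out, 7 lost a call, 5 gained one and 28 turned sign without passing. In small against large pre-BII cells 4 of the 7 probe sets passed on the values as deposited and 4 within sorts 1 to 3. In immature against large pre-BII cells 4 passed within sorts 1 to 3. In large pre-BII against pre-BI cells 1 passed with the floor at the 60th percentile and 1 with the floor at the noise limit. In immature against small pre-BII cells 0 passed on the values as deposited and 0 within sorts 1 to 3. In mature against small pre-BII cells 0 passed on the values as deposited, 0 within sorts 1 to 3 and 0 within sorts 8 to 11, and 1 to 2 passed when a preparation was left out (2 without small pre-BII sort 10 or without mature B sort 8). With the sort number as a replicate block, 2 passed in immature and 2 in mature against small pre-BII cells, where the block added Rrm2 m14223_s_at (adjusted p = 0.0395 and 0.0172). In small pre-BII against pre-BI cells 6 passed with the block and 5 without, the sixth being the b set probe set of Rrm2, and the block changed no other call. Of the 52, differences that turned sign passed under no setting: Tk1 in large pre-BII against pre-BI cells was 0.06 as deposited, Rrm1 was 0.13 in immature against small pre-BII cells within sorts 1 to 3 and 0.15 in mature against immature B cells within sorts 8 to 11, and Rrm2 C81593_rc_f_at in mature against immature B cells was -0.04 with the floor at the 60th percentile, -0.04 with the floor at the noise limit, and -0.11 to 0.53 when a preparation was left out. Within sorts 1 to 3 and 8 to 11 fewer preparations enter the fit, and elsewhere the cause was not tested. Signal over background limits Tyms and Tk1 in the later stages, where 15 of 15 and 14 of 15 preparations lay at or under the noise limit, and the b set probe sets throughout.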
